A study of Mus musculus with 4 samples.

Results

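The IL-6 family of cytokines and receptors was followed across cell types and in contralateral (CONT) against ablated (ABL) femurs. The 9 genes were taken by symbol from the 28006 features of the deposited count tables: the ligands *Il6*, *Lif* and *Il11*, the receptor chains *Il6st*, *Il6ra*, *Lifr* and *Osmr*, and, downstream of them, *Stat3* and *Socs3*. All 9 were found, each under a single symbol. The cells were Cxcl12CE-tdTomato+ cells, sorted from femurs of Cxcl12-iCreER; R26R(tdTomato/+) mice 7 days after bone marrow ablation, a mechanical removal of marrow from the femur, and their RNA was counted cell by cell in droplets. Tamoxifen was given 7 days before the ablation, so the cells had been labelled before the injury. The creER is driven by a bacterial artificial chromosome with the *Cxcl12* gene, and all CONT and ABL mice carried the transgene, the reporter and the tamoxifen label, so that no unlabelled animals enter the comparison. CONT is described as the contralateral femur of the ablated mice. For replicate 2 the shares of cells with *Xist*, given below, put this in doubt. There were 2 libraries per condition, with replicate 1 made with Chromium version 2 chemistry from pooled mice and replicate 2 with version 3. The ages of the mice are not in the sample labels.

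IL-6 family cytokines share a receptor subunit, gp130, encoded by *Il6st*. IL-6 and IL-11 first bind a chain of their own, of which *Il6ra* encodes that for IL-6, whereas LIF signals through gp130 with the LIF receptor (*Lifr*) and oncostatin M through gp130 with either *Lifr* or the oncostatin M receptor (*Osmr*). The receptors activate JAK kinases, which phosphorylate STAT3, and STAT3 induces *Socs3*, whose product binds gp130 and the kinases and ends the signal. In bone, these cytokines act on both osteoblasts and osteoclasts, and CXCL12-abundant reticular cells of the marrow are known as a source of IL-6 for hematopoietic cells.

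The genes lie on 6 chromosomes of GRCm38 (GENCODE M21). *Il6* spans chr5:30013114-30019981 on the plus strand with 5 exons in its main transcript, *Lif* chr11:4257557-4272514 (plus, 4 exons) and *Il11* chr7:4772373-4782859 (minus, 5 exons). *Il6st* lies at chr13:112464070-112510086 (plus, 17 exons) and *Il6ra* at chr3:89864059-89913196 (minus, 10 exons). *Osmr* (chr15:6813577-6874969, minus, 18 exons) and *Lifr* (chr15:7090614-7197489, plus, 19 exons) are neighbours that point away from each other, with 215644 bases between them. *Stat3* (chr11:100885098-100939540, minus, 24 exons) and *Socs3* (chr11:117966079-117970047, minus, 2 exons) share a chromosome with *Lif*.

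The 250 bases before the start site of the 3 ligand genes and of *Socs3* are shown, since the largest differences between conditions were those of *Il6* and *Il11*, *Lif* set reticular clusters apart and *Socs3* is the STAT3 target of the list. The sequences are those of RefSeq for GRCm38.p6, written 5′ to 3′ on the strand of the gene. Start sites are those of RefSeq too, and the windows of *Lif*, *Il11* and *Socs3* reach into the GENCODE spans given above. Capitals mark matches, on either strand, to the AP-1 motif TGANTCA in the ligand genes and to the STAT motif TTCNNNGAA in *Socs3*.
Il6, chr5:30012864-30013113, plus strand: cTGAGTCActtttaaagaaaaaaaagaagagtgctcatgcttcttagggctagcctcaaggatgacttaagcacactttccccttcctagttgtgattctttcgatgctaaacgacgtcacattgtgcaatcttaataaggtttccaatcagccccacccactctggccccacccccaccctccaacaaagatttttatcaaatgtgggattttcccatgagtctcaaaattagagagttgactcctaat
Lif, chr11:4257318-4257567, plus strand: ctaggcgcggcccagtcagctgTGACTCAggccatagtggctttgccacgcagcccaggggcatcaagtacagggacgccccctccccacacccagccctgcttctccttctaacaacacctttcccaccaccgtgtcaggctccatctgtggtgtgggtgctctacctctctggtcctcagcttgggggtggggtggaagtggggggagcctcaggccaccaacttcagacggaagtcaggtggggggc
Il11, chr7:4778142-4778391, minus strand: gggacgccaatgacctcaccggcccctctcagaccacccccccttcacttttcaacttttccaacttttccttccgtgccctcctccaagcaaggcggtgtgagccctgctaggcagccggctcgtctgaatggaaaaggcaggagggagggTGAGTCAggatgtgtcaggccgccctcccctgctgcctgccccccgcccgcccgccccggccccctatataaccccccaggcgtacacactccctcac
Socs3, chr11:117969367-117969616, minus strand: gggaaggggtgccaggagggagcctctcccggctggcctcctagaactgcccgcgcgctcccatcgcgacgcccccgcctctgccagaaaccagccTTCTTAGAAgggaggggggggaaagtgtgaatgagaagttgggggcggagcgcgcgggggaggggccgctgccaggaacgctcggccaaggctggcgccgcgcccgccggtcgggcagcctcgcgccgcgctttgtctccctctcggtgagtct
*Il11* has 2 start sites in RefSeq, and the window shown is that of the inner one, since the window of the outer one held no motif. The AP-1 motif began 249 bases before the start of *Il6*, 228 before that of *Lif* and 98 before that of *Il11*. It was in 6.75% of the 32851 promoter windows of the same length, and the STAT motif, which began 154 bases before the start of *Socs3*, was in 7.02%. The cyclic AMP response element TGACGTCA, in 1.55% of windows, matched none of the 11 windows of the 9 genes. The windows of *Il6st*, *Il6ra*, *Lifr*, *Osmr* and *Stat3*, not shown, held no AP-1 or STAT match either. These are matches of letters in this window only, and the data hold no measure of binding there.

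The 4 libraries held 22889380 to 44784072 unique molecular identifiers (UMIs), and 1459 to 3433 barcodes per library were taken as cells, with median depths of 5714 to 12896 UMIs. Cells were put in classes by clustering with all listed genes left out, and class names stand for clusters that resemble a cell type by its marker genes. Reticular cells numbered 1155, 405, 1757 and 376 in CONT 1, ABL 1, CONT 2 and ABL 2 (the number is the replicate). They were the largest mesenchymal class except in ABL 2, where 441 cells were periosteal and 486 were in unnamed mesenchymal clusters. Although the labels call the sorted cells mesenchymal, 1794, 724, 236 and 408 cells were hematopoietic, among them 107 to 969 neutrophil-lineage and 43 to 466 erythroid cells. Of the reticular cells' marker genes, *Cxcl12* was at 17243, 15640, 17383 and 10439 UMIs per 1000000 UMIs of the class (CPM) in the 4 libraries. Up to 5 barcodes were shared between any pair of libraries. The share of mesenchymal cells with an *Xist* UMI was 49.9%, 81.4%, 71.9% and 0.0553%, which goes against a pairing by mouse in replicate 2. *Xist* is expressed by cells of females, and with 2 *Xist* UMIs in the 1808 mesenchymal cells of ABL 2, sex and condition cannot be told apart in that replicate. In replicate 1 the shares of 49.9% and 81.4% differed as well, at median depths of 4620 and 7082.5 UMIs in mesenchymal cells. The part of sex and of depth in that difference was not tested. Droplets of at most 300 UMIs, taken as empty, carried the same genes (*Il6* at 58.0, 22.7, 134 and 22.4 CPM, *Il11* at 0.284, 3.80, 1.02 and 8.64 CPM). Free RNA was estimated at 9.22%, 10.8%, 0.959% and 9.26% of the UMIs of reticular cells. For mesenchymal and endothelial classes the estimate set neutrophil and erythroid markers against the empty droplets, and for hematopoietic classes mesenchymal markers. Doublets or attached cells would enter it too and were not told apart from free RNA. In ABL 2 it was 0.652% in chondrocyte, 24.5% in cycling and 47.2% in endothelial cells. Values of a gene are always given in the order CONT 1, ABL 1, CONT 2, ABL 2, and each library is 1 sample.

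**Figure D1:**
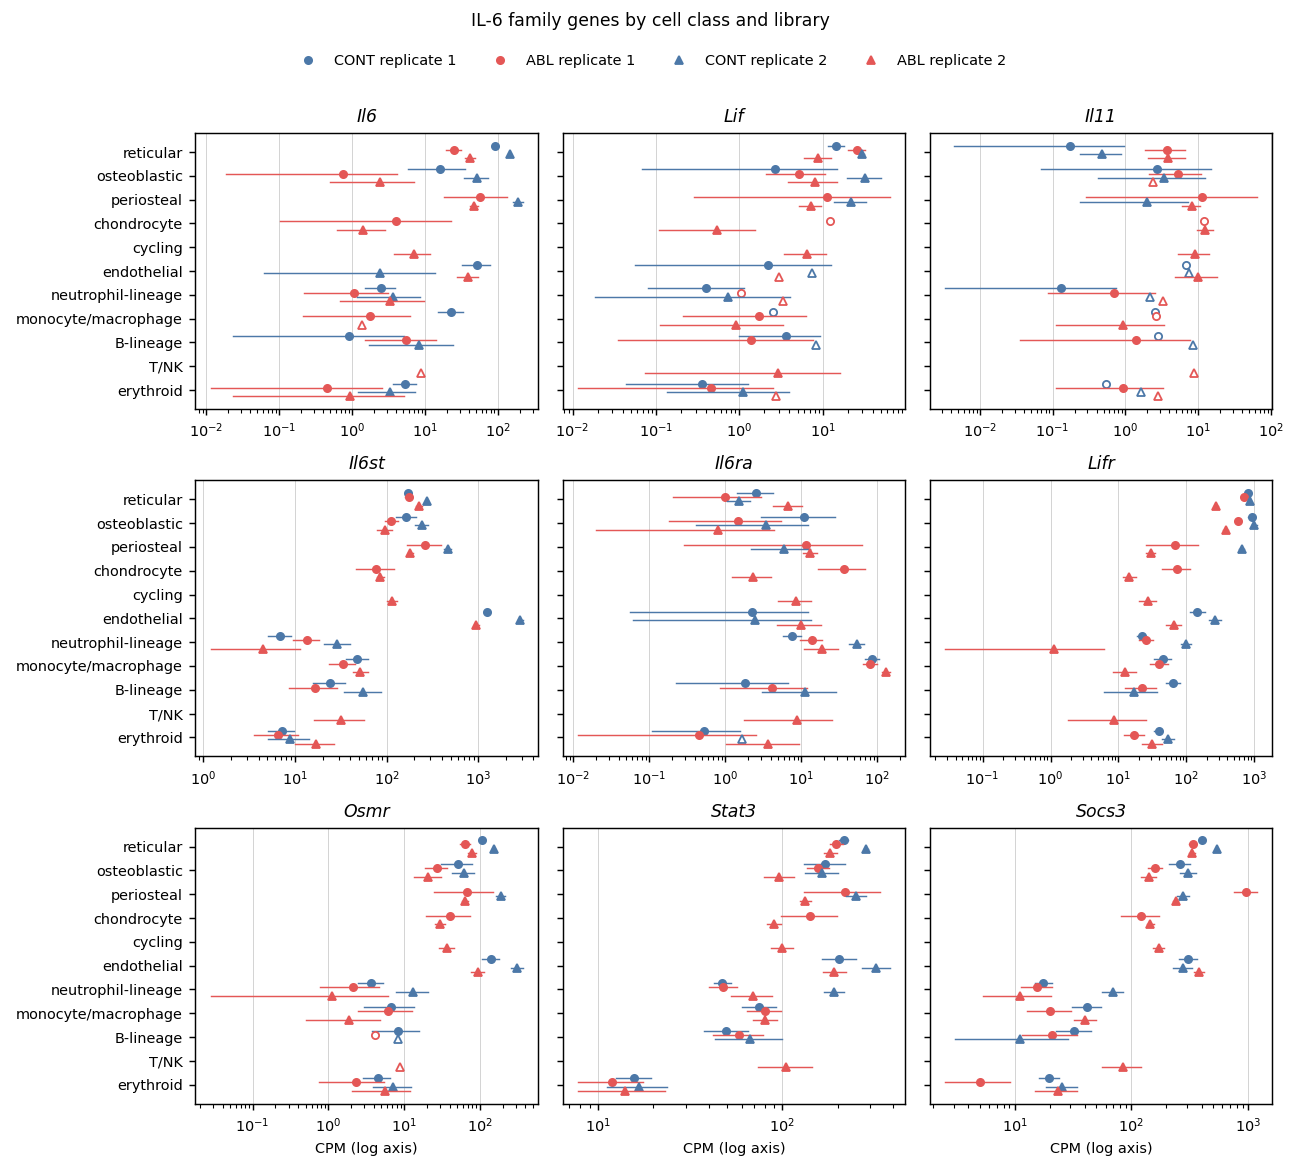
Level of each IL-6 family gene (CPM, log axis) in each cell class with at least 10 cells in a library, with CONT in blue and ABL in red, circles for replicate 1, triangles for replicate 2, lines for 95% exact Poisson intervals and open symbols for classes without a UMI, drawn at 3 UMIs. *Il6st* stands highest in endothelial cells (951 to 2877 CPM), *Il6ra* in monocytes and macrophages (80.1 to 130 CPM), and *Il6* and *Lifr* are high in reticular cells.

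Most UMIs of the ligand *Il6* were in mesenchymal cells (72.0%, 91.6%, 98.6% and 91.7% of those in all cells of the library). In reticular cells it reached 91.1, 25.1, 146 and 41.8 CPM, and in periosteal cells 57.2, 190 and 47.2 CPM in the 3 libraries with at least 10 such cells (ABL 1, CONT 2 and ABL 2). These ranges overlapped, so reticular and periosteal cells cannot be ordered. Endothelial cells, present in CONT 1, CONT 2 and ABL 2, held 51.5, 2.45 (1 UMI) and 38.9 CPM, of which the first and the second were below the empty droplets of their library. In ABL 2 the free RNA estimate was 47.2% of endothelial UMIs. Neutrophil markers summed to 9413 CPM in these cells and erythroid markers to 146 CPM. Monocytes and macrophages, a class not found in CONT 2, held 23.0 CPM in CONT 1 and at most 1.74 in ABL. These values were all below the empty droplets of their library. Clusters outside the mesenchyme that got no class name held 64.8, 1.67, 16.2 and 3.90 CPM, and in CONT 1 these were 164 of 942 *Il6* UMIs (17.4%), from 15 of 236 cells. Osteoblastic cells held 16.2, 0.750, 51.1 and 2.40 CPM, neutrophil-lineage cells 1.06 to 3.63 CPM and erythroid cells 0.460 to 5.35 CPM, and these 3 classes were below the empty droplets of every library. Per cell, 13.5%, 7.90%, 24.5% and 13.3% of reticular cells had an *Il6* UMI, at median depths of 4502, 6616, 12564 and 8009 UMIs. After thinning every cell to 2000 UMIs, the shares were 7.79% (95% exact binomial interval 6.31 to 9.49%), 1.98% (0.857 to 3.85%), 11.7% (10.3 to 13.3%) and 5.32% (3.28 to 8.10%). In erythroid cells, which should lack *Il6*, 4.51%, 0.680%, 7.81% and 2.33% had an *Il6* UMI before thinning, at median depths of 10607, 12906, 24382 and 18472 UMIs, and 7 of 466, 0 of 147, 0 of 64 and 0 of 43 cells after it (upper bounds of 3.07%, 2.48%, 5.60% and 8.22%). Intervals here cover counting error only. The highest *Il6* levels were in a small mesenchymal cluster without a class name, led by *Rgs5*, *Acta2* and *Myh11*, genes of mural cells: 1132 CPM (39 UMIs in 9 cells) in CONT 1, 188 (13 UMIs in 9 cells) in ABL 1, 486 (18 UMIs in 4 cells) in CONT 2 and 584 (48 UMIs in 9 cells) in ABL 2. The cluster was singled out after its values were seen.

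*Lif* was found at lower counts, again with most UMIs in mesenchymal cells. Reticular cells held 14.5, 25.7, 29.5 and 8.83 CPM, and osteoblastic cells 2.69, 5.25, 32.4 and 8.01 CPM from 1, 7, 19 and 10 UMIs, so that their ranges overlapped. In replicate 1 the osteoblastic levels were below the empty droplets (10.2 CPM in CONT and 15.6 in ABL). Endothelial cells had 1 *Lif* UMI over the 3 libraries that held the class. Neutrophil-lineage cells were at 0.727 CPM or less.

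*Il11* was close to absent from CONT libraries. All mesenchymal cells together held 2, 36, 15 and 219 *Il11* UMIs. In ABL replicate 2, 70 of the 219 UMIs were in chondrocyte cells (12.5 CPM), 65 in mesenchymal clusters without a class name (9.56 CPM), 53 in periosteal cells (8.09 CPM), 18 in cycling cells (8.98 CPM) and 13 in reticular cells (3.82 CPM). In ABL replicate 1, 17 of the 36 were in unnamed mesenchymal clusters and 11 in reticular cells. Endothelial cells had 0 *Il11* UMIs in CONT and 10 in ABL replicate 2. The empty droplets of that library carried 8.64 CPM, above its reticular and periosteal cells and under the other classes named here, and the part of free RNA in these levels was not tested class by class.

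**Figure D2:**
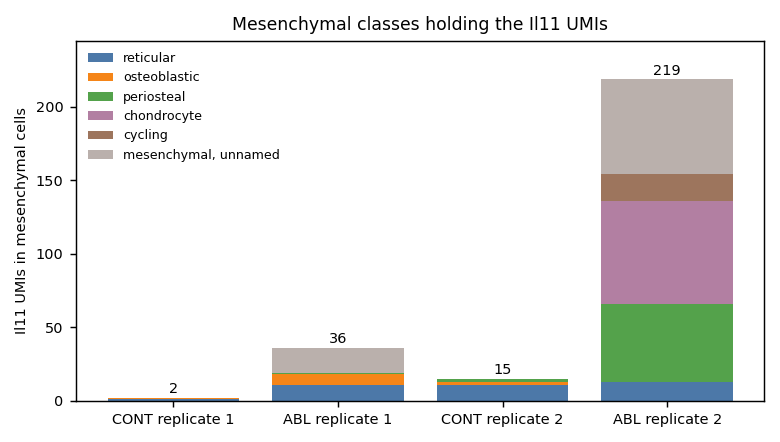
Number of *Il11* UMIs in mesenchymal cells of each library, split by class (stacked colours, with the total above each bar). The totals were 2, 36, 15 and 219, and most of the UMIs of ABL replicate 2 were outside reticular and osteoblastic cells.

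The receptor chains divided by cell type. *Il6st*, the shared gp130 chain, was highest in endothelial cells at 1252, 2877 and 951 CPM (CONT 1, CONT 2 and ABL 2), all above the reticular cells (173, 175, 273 and 226 CPM) and the periosteal cells (263, 465 and 182 CPM). Hematopoietic classes were lower, with monocytes and macrophages at 33.1 to 51.8 CPM and erythroid cells at 6.45 to 16.7 CPM, below the empty droplets of their library. *Il6ra*, the IL-6 chain, showed another order: monocytes and macrophages held 85.9, 80.1 and 130 CPM (CONT 1, ABL 1 and ABL 2), neutrophil-lineage cells 7.62, 13.8, 53.8 and 18.9 CPM, and reticular cells only 2.58, 1.00, 1.53 and 6.77 CPM from 15, 3, 35 and 23 UMIs. The empty droplets carried 12.3, 12.1, 7.43 and 19.2 CPM of *Il6ra*. These were above the reticular cells of every library and the neutrophil-lineage cells of CONT 1 and ABL 2. The monocytes and macrophages stood above all other named classes in each library that held them. Clusters outside the mesenchyme without a class name held 31.1%, 6.55%, 57.3% and 20.4% of the *Il6ra* UMIs of all cells. In CONT 2, where no monocyte and macrophage class was found, these were 165 of 288 UMIs.

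*Lifr* was high in reticular (803, 703, 877 and 269 CPM) and osteoblastic cells (913, 573, 1002 and 380 CPM), and these ranges overlapped. Endothelial cells were at 146, 265 and 65.8 CPM, each below the empty droplets of its library (330, 555 and 88.0 CPM). *Osmr* was at 107, 63.8, 152 and 78.3 CPM in reticular cells and 141, 309 and 93.7 CPM in endothelial cells, above the reticular cells of the same library in all 3 libraries. Osteoblastic cells ranged from 20.8 to 61.4 CPM, below the reticular cells and the empty droplets of each library. The hematopoietic classes did not go above 13.1 CPM.

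Downstream of the receptors, *Stat3* had UMIs in every class. It was at 215, 196, 283 and 182 CPM in reticular cells, 204, 321 and 191 in endothelial cells and 217, 252 and 133 in periosteal cells, which overlapped. Neutrophil-lineage cells held 47.3, 47.6, 190 and 68.9 CPM and erythroid cells 12.0 to 16.6 CPM, the lowest of all classes. The empty droplets carried 118, 136, 236 and 111 CPM of *Stat3*, above the hematopoietic classes of their library, and 194, 158, 522 and 180 CPM of *Socs3*. *Socs3*, the feedback inhibitor, was at 404, 335, 548 and 333 CPM in reticular cells, at 307, 275 and 382 CPM in endothelial cells and at 261, 160, 307 and 142 CPM in osteoblastic cells. Its level in periosteal cells was 961 CPM in ABL 1, from 84 UMIs in 12 cells, and 279 and 239 CPM in CONT 2 and ABL 2.

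Across the 36 class-by-library points of at least 10 cells, the genes nearest to each family member were found by Pearson's r of log2(CPM + 10), as a description, since the points of a library share depth and free RNA. *Il6* was nearest to *Rarres2*, *Prss23* and *C1s1* (r = 0.867, 0.859 and 0.832), and *Lif* to *Cyp1b1*, *Fgf7* and *Sfrp1* (0.886, 0.859 and 0.849). *Il6st* was nearest to *Ece1*, then *Adamts5* and *Luzp1* (0.956 for the first and 0.929 for the last). *Lifr* was nearest to *Irx3*, *Tpm1* and *Cp* (0.953, 0.948 and 0.946), and *Osmr* to *Col4a2*, then *Amotl1* and *Pros1* (0.945 and, for the last, 0.938). The 3 genes nearest to *Il6ra* were *Cd68*, *Csf1r* and *Mpeg1* (0.838, 0.835 and 0.832), all known from macrophages. *Stat3* was nearest to *Smarca2*, *Klf6* and *Tmem30a* (0.935, 0.927 and 0.927), and *Socs3* to *Klf9*, *Camk2n1* and *Egr1* (0.937, 0.936 and 0.935). *Il11* did not reach the minimum level for this measure.

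To ask how the family differed between ABL and CONT, UMIs were summed per library and class and tested across all genes by edgeR's quasi-likelihood test with the replicate as a block and Benjamini-Hochberg adjustment, at a threshold of 0.05. In reticular cells *Il6* was lower in ABL. Its levels of 25.1 and 41.8 CPM in the ABL libraries were below both CONT libraries (91.1 and 146 CPM), and the groups did not overlap. This was a fall by 1.92 on the log2 scale (SE 0.28, n = 2 libraries per group, adjusted p = 0.000660 by edgeR), of nearly the same size in replicate 1 (CONT 3.64 times ABL, 95% counting interval 2.85 to 4.70) and replicate 2 (3.49 times, 2.95 to 4.15). Of the 9 members, all tested, this 1 passed, and 8 did not. Of the 11458 genes tested in reticular cells, 1.02% passed as lower in ABL, 1.52% as higher and 2.54% in either direction, and 10.2% had both ABL libraries below both CONT libraries. The empty droplets were lower in ABL too and close to the reticular level in ABL 1 (22.7 CPM) and CONT 2 (134 CPM), and with free RNA subtracted the fold change was -1.90 (adjusted p = 2.95e-05 by edgeR). The blocked fit has 1 residual degree of freedom and takes the chemistry into the block. Without the replicate block, the *Il6* fold change was -1.90 but no longer passed (adjusted p = 1.00 by edgeR), and 0 genes passed in all, with 412 at an unadjusted p under 0.05.

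The other reticular members did not pass. *Il11* was at 0.172, 3.67, 0.480 and 3.82 CPM, with both ABL libraries above both CONT libraries, as for 20.3% of genes tested. Its log2 fold change was 3.26 (SE 0.88, adjusted p = 0.0609 by edgeR). These levels were below the empty droplets of every library, which were higher in ABL as well (0.284, 3.80, 1.02 and 8.64 CPM). In CONT replicate 1 there was 1 *Il11* UMI, and the counting interval of the ratio of ABL to CONT was 3.10 to 918 in replicate 1 and 3.30 to 19.7 in replicate 2. *Osmr* was below CONT in both ABL libraries (107 and 152 against 63.8 and 78.3 CPM, log2 fold change -0.94, SE 0.28, adjusted p = 0.0914 by edgeR). Of all genes tested, 10.2% had both ABL libraries below both CONT libraries.

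*Lif* moved in opposite directions in the replicates. The ratio of ABL to CONT was 1.78 in replicate 1 (25.7 over 14.5 CPM, counting interval 1.29 to 2.45) and 0.299 in replicate 2 (8.83 over 29.5 CPM, 0.200 to 0.431). The pooled log2 fold change was -0.51 (SE 0.42, adjusted p = 0.671 by edgeR), and the groups overlapped. *Lifr* was close in replicate 1 (803 and 703 CPM, ratio 0.875, 0.831 to 0.922) and far apart in replicate 2 (877 and 269 CPM, ratio 0.307, 0.287 to 0.328), so the fold change of -1.03 had an SE of 0.48 (adjusted p = 0.360 by edgeR). A difference between the replicates cannot be tested with 1 library per condition in each.

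*Socs3* and *Stat3* had point estimates below 0 in both replicates and did not pass (*Socs3* log2 fold change -0.58, SE 0.39, adjusted p = 0.581, and *Stat3* -0.48, SE 0.34, adjusted p = 0.606 by edgeR). Both ABL libraries lay below both CONT libraries for each gene, as for 10.2% of genes tested. *Il6st* differed by -0.22 (SE 0.33, adjusted p = 0.843 by edgeR) and its ranges overlapped. *Il6ra* gave 0.82 (SE 0.76, adjusted p = 0.715 by edgeR) from few UMIs. The median log2 fold change of the 9 members was -0.51, beside -0.00380 over all genes tested.

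**Figure D3:**
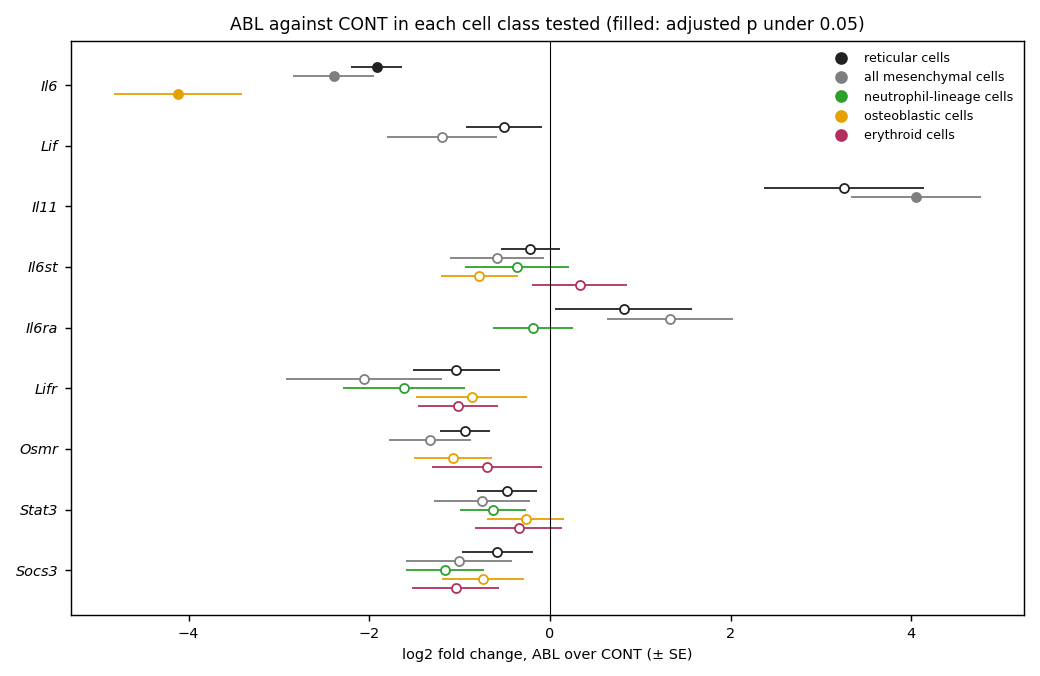
Log2 fold change of ABL over CONT with its standard error for each IL-6 family gene in the 5 cell groups tested, with filled symbols at an adjusted p under 0.05. *Il6* is left of 0 in reticular (-1.92), all mesenchymal (-2.39) and osteoblastic cells (-4.12), *Il11* is right of 0 in all mesenchymal cells (4.06), and the open symbols of the other genes did not pass.

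Over all mesenchymal cells, whatever their class, *Il6* fell and *Il11* rose. *Il6* was at 97.7, 19.8, 136 and 25.7 CPM, a fall by 2.39 on the log2 scale (SE 0.45, adjusted p = 0.0163 by edgeR). *Il11* was at 0.288, 5.95, 0.544 and 8.55 CPM, a rise by 4.06 (SE 0.72, adjusted p = 0.0120 by edgeR). Both ABL libraries stood apart from both CONT libraries in each case. Of the 9 members tested, 1 passed in each direction, where 0.656% of 13728 genes passed as lower, 1.81% as higher and 2.46% in either direction, and 18.8% had both ABL libraries below and 22.3% above both CONT libraries. The median over the members was -1.01, beside -0.06 over all genes. Without the replicate block neither passed (adjusted p = 0.501 for both by edgeR). In replicate 2, the *Il11* levels were below the empty droplets of both libraries (1.02 CPM in CONT and 8.64 in ABL). With free RNA subtracted, the fold changes of *Il6* and *Il11* were -2.42 and 4.02 with adjusted p = 0.0655 and 0.0589 by edgeR. The make-up of these cells differed between the libraries: reticular cells were 87.8% and 85.6% of mesenchymal cells in CONT, and 58.5% and 20.8% in ABL. In replicate 2, chondrocyte cells numbered 9 in CONT and 326 in ABL, cycling cells 3 and 91, and periosteal cells 62 and 441. *Lifr* was at 752, 539, 909 and 77.4 CPM in this sum, a log2 fold change of -2.06 with an SE of 0.86 (adjusted p = 0.257 by edgeR), and *Socs3* at 379, 254, 532 and 208 CPM (-1.01, SE 0.59, adjusted p = 0.464 by edgeR).

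Within single mesenchymal clusters, the direction of *Il6* was kept in most. The part of the make-up in the fall of *Il6* and in the rise of *Il11* was not tested, and cells within a cluster can still differ between conditions. Among clusters with at least 10 cells in both conditions of a replicate, the *Il6* level was lower in ABL in 8 of 8 clusters of replicate 1 and in 9 of 11 of replicate 2, and the counting intervals did not overlap in 5 and 8 of these. The 2 exceptions were small or low: a reticular cluster led by *Gm26917* (3.0 CPM in CONT and 4.6 in ABL) and the cluster led by *Prg4* (0 in CONT and 21.7 in ABL). *Lifr* was lower in ABL in 7 of 8 clusters of replicate 1 and 11 of 11 of replicate 2, with intervals apart in 3 and 10. *Osmr* was lower in 7 of 8 and 11 of 11 (intervals apart in 2 and 9), *Socs3* in 6 of 8 and 10 of 11 (3 and 10) and *Stat3* in 4 of 8 and 11 of 11 (0 and 9). For *Lif*, 5 of 8 clusters were higher in ABL of replicate 1 and 9 of 11 were lower in replicate 2. *Il11* was higher in ABL in 5 of 8 clusters of replicate 1 and 5 of 11 of replicate 2, with intervals apart in 0 and 3. It was lower in 0 and 4 clusters and equal in 3 and 2. Clusters of a library are not replicates, and these counts carry no test.

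**Figure D4:**
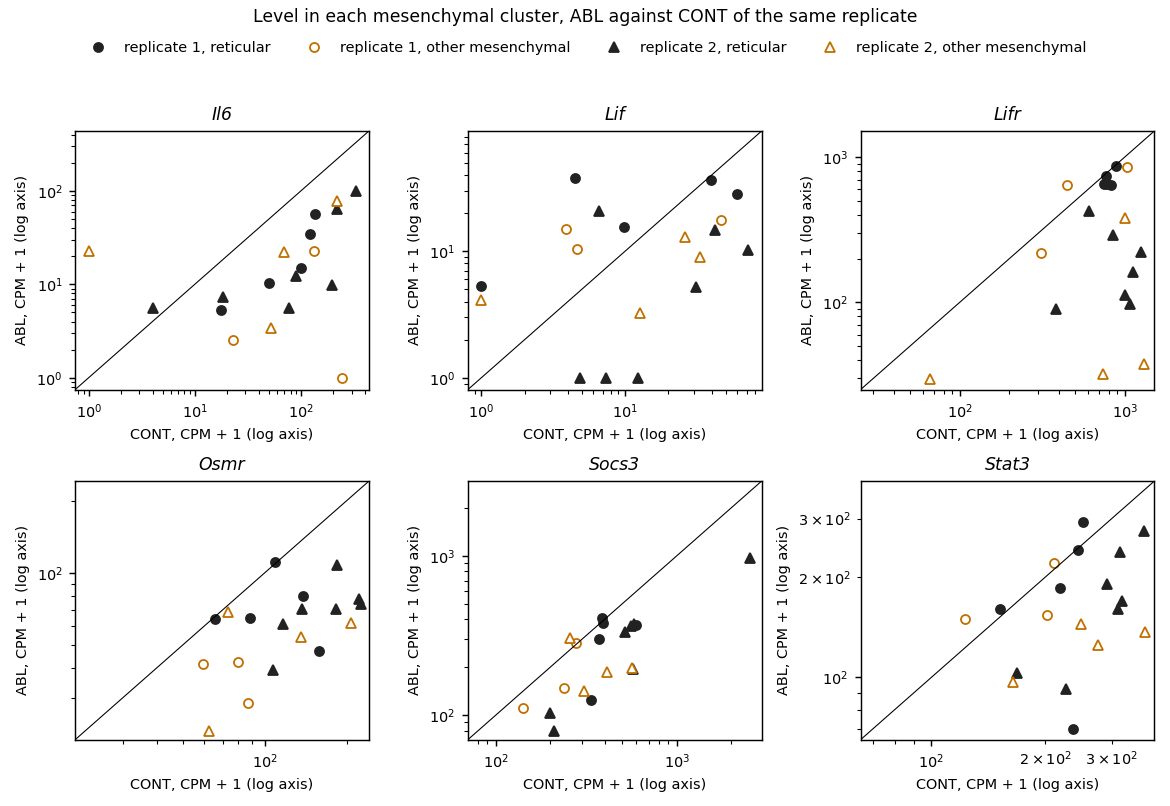
Level of 6 genes in each mesenchymal cluster with at least 10 cells in both conditions (log axes, CPM + 1), with CONT on the horizontal and ABL on the vertical axis, circles for replicate 1, triangles for replicate 2, and filled symbols for reticular clusters. *Il6* lies below the diagonal in 8 of 8 clusters of replicate 1 and 9 of 11 of replicate 2, and the replicates part for *Lif* and *Lifr*.

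Reticular cells were not uniform in the family's ligands, although these genes were left out of the clustering. In CONT replicate 2, *Il6* ranged from 3.0 CPM in the cluster led by *Gm26917* to 327 in a cluster led by *Serpina3n*, *Serpina3c*, *Cldn10* and *Il6* itself (507 cells), and this cluster held 98.2 CPM in ABL. *Xist* was among the leading genes of the *Gm26917*-led cluster, whose median depth in CONT was 8806.5 UMIs, against 13449 in the *Serpina3n*-led cluster. The part of sex and of depth in this range was not tested. The *Ccl2*-led cluster of replicate 1 (443 CONT and 60 ABL cells) had 134 and 55.3 CPM of *Il6*, and the *Gm12216*-led cluster (323 and 119 cells) 16.5 and 4.3 CPM. *Lif* was among the leading genes of a cluster in each replicate, both with *Arrdc3*. There its levels were 38.4, 35.3, 71.0 and 9.2 CPM. The cluster of replicate 2 also had *Xist* among its leading genes, and the part of sex in its *Lif* level was not tested. The cluster of replicate 1 held 232 of 1155 CONT and 156 of 405 ABL reticular cells, and was the largest reticular cluster of that ABL library. *Socs3* was at 2555 CPM in CONT and 967 in ABL in a cluster of replicate 2 of 81 and 20 cells, led by *Msmp*, *Zfp36* and *Socs3*, with *Jun* and *Egr1*. The 19 genes of the dissociation list summed to 67148 and 27503 CPM there, against 19387 and 10371 CPM in all reticular cells of these libraries. Its part in the *Socs3* level was not tested.

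In osteoblastic cells *Il6* was lower in ABL at low counts. *Il6* was at 16.2, 0.750, 51.1 and 2.40 CPM from 6, 1, 30 and 3 UMIs, so both ABL libraries were below both CONT libraries (log2 fold change -4.12, SE 0.71, adjusted p = 1.51e-06 by edgeR). The ratio of CONT to ABL was 21.6 in replicate 1 (counting interval 2.62 to 991) and 21.3 in replicate 2 (6.62 to 109). Of the 9 members 6 had enough counts to be tested, and this 1 passed, where 3.35% of 7698 genes passed as lower, 2.73% as higher and 6.08% in either direction, and 27.9% had both ABL libraries below both CONT libraries. These levels were below the empty droplets of every library, which were lower in ABL as well (58.0 and 134 CPM in CONT, 22.7 and 22.4 in ABL), and with free RNA subtracted the fold change was -4.33 (adjusted p = 1.66e-06 by edgeR). *Il6* did not pass without the replicate block (adjusted p = 0.125 by edgeR), and DESeq2 gave no adjusted p at this count. Without TMM scaling the median of all genes here moved from 0.01 to -0.17. The other 5 had adjusted p of 0.141 or more. *Osmr*, at 51.2 and 61.4 CPM in CONT, was lower in both ABL libraries (log2 fold change -1.07, SE 0.44, adjusted p = 0.141 by edgeR). Its levels too were below the empty droplets of every library, which were lower in ABL as well (54.5, 39.6, 127 and 42.6 CPM).

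In the hematopoietic classes tested, neutrophil-lineage and erythroid cells, no member passed. Monocytes and macrophages, B-lineage and T/NK cells were not tested, since not every library held them. In neutrophil-lineage cells, 5 of 9 were tested and 0 passed by edgeR (2 at an unadjusted p under 0.05, *Lifr* and *Socs3*, and 0 by DESeq2), where 0.0258% of 7755 genes passed as lower, 0.232% as higher and 0.258% in either direction, and 4.72% had both ABL libraries below and 4.81% above both CONT libraries. *Lifr* was at 22.2, 25.4, 98.1 and 1.11 CPM (adjusted p = 1.00 by edgeR, and 0.0316 without the filter on low counts). The empty droplets of these libraries carried 330, 364, 555 and 88.0 CPM of *Lifr*, also lowest in ABL replicate 2, and the part of free RNA in this level was not tested. *Il6ra* was at 7.62, 13.8, 53.8 and 18.9 CPM and overlapped between conditions. In erythroid cells 5 of 9 were tested and 0 passed by edgeR (2 at an unadjusted p under 0.05, again *Lifr* and *Socs3*, and 0 by DESeq2), where 0.362% of 7465 genes passed as lower, 0.442% as higher and 0.804% in either direction, and 7.5% had both ABL libraries below and 7.09% above both CONT libraries. The ABL effect was compared between reticular and neutrophil-lineage cells by an interaction term over 11732 genes. The 5 members tested in both classes did not pass (adjusted p = 1.00 for each by edgeR), 0% of genes passed, and 77 were at an unadjusted p under 0.05. *Il6*, *Lif*, *Il11* and *Osmr*, which had too few counts for the neutrophil-lineage fit, were in this comparison and did not pass either. The difference, reticular less neutrophil-lineage, was -1.23 on the log2 scale for *Il6* (SE 0.84) and 1.43 for *Lifr* (SE 1.02).

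Other genes of the pathway were taken from lists. Of 5 further receptor genes, 2 were tested in reticular cells and 0 passed (median log2 fold change -0.01). *Il11ra2* has several near-identical copies in the files and is uncertain. Of 11 kinases, STATs, phosphatases and SOCS genes, all tested, 0 passed in reticular cells (median -0.20), and over all mesenchymal cells 1 did: *Cish*, an inhibitor of STAT5 signalling, fell by 2.25 (SE 0.48, adjusted p = 0.0246 by edgeR), from 26.1 and 36.9 CPM to 9.91 and 4.69.

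Of 19 genes known to respond to STAT3, all tested in reticular cells, 1 rose and 1 fell, where 1.52% of all genes tested rose and 1.02% fell, with a median log2 fold change of -0.68. *Timp1*, an inhibitor of metalloproteinases, rose by 2.78 (SE 0.46, adjusted p = 0.00221 by edgeR), with levels of 47.7, 152, 20.1 and 329 CPM. *Serpina3n*, an acute-phase serpin, fell by 1.62 (SE 0.36, adjusted p = 0.0171 by edgeR), from 115 and 385 CPM to 27.7 and 184. *Timp1* also rose in all mesenchymal cells (3.86), osteoblastic cells (1.80) and neutrophil-lineage cells (3.83). In these groups 1.81%, 2.73% and 0.232% of all genes tested rose. Of neutrophil-lineage UMIs, 7.8%, 8.1%, 12.5% and 5.5% were estimated to be free RNA, and its part in the rise of *Timp1* there was not tested. In osteoblastic cells 5 of the list's 18 tested genes fell, *Serpina3n*, *Serpina3g*, *Hp*, *Il4ra* and *Ccl2*, where 3.35% of all genes tested fell. In erythroid cells 2 of 14 tested passed as lower, where 0.362% of all genes did. These were *Ccl2*, at 60.3, 15.2, 53.1 and 13.9 CPM, and *Vegfa*, at 18.2, 8.75, 34.3 and 2.79 CPM (adjusted p = 0.00679 and 0.0270 by edgeR). Free RNA was estimated at 11.5%, 6.33%, 7.25% and 3.94% of erythroid UMIs, the levels of *Ccl2* in reticular cells were 1156, 486, 829 and 450 CPM, and the part of free RNA in the erythroid levels was not tested. Of the 19 genes of the dissociation list, which cell isolation can induce, 3 fell in reticular cells (*Hspa1b* by 2.28, *Hspa1a* by 1.74 and *Atf3* by 1.31) and none rose, beside the same 1.02% of all genes, with a median of -0.86. Their summed level was 17086, 11536, 19387 and 10371 CPM in reticular cells, lower in both ABL libraries like *Il6*, and its part in the fall of *Il6* was not tested. Of markers of other cells in reticular cells, *Prg4*, the lubricin gene of joint-lining cells, was at 2057 CPM in ABL replicate 2 against 1.55, 8.02 and 4.14 CPM in the other libraries, and its part in the family's levels was not tested. The summed level of the 10 endothelial markers was 69.8, 123, 35.9 and 67.4 CPM in reticular cells, against 7622, 8759 and 6981 CPM in endothelial cells.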

How the data were processed

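The authors aligned reads to mm10 with reporter sequences added and deposited raw counts of UMIs per feature for all barcodes. Per the file headers, the version 3 matrices were written by software version 3.0.0, and the labels name Cell Ranger and Seurat. Cells had to pass the study's filter, a minimum of 500 genes and a maximum of 20% mitochondrial UMIs for version 2 and of 1000 and 15% for version 3, and to reach a depth of 1/10 of percentile 99 of the 3000 deepest barcodes. Doublets were kept, and Scrublet marked 2 to 78 cells per library. Libraries were clustered in Seurat 5.3.0 (resolution 0.8), mesenchymal cells again after CCA integration of each replicate. Of 124 markers 120 were found. A class needed 3 detected markers, a score of 0.25 and a margin of 0.1, values taken over from earlier work on these data. The merging of pre-osteoblasts with osteoblasts and the rule that left clusters led by mural or hematopoietic genes unnamed were set after the clusters were seen. Sums of at least 10 cells per library were fitted in edgeR 4.0.16 (TMM, filter on low counts) under R 4.3.3, tested on simulated data first. DESeq2 1.42.0 and the other settings are alternatives.

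The 9 genes, the gene lists, the markers and the tests were chosen with earlier results of these data known. Apart from the members, genes were named if they were past the threshold in a pathway list, among the 3 nearest to a member, or cell markers. The block is the replicate number of the labels, which goes with the chemistry. CONT is described as the contralateral femur, but the *Xist* shares of replicate 2 go against the same mice in both libraries, so the block is not a pairing by mouse there. Within a replicate, the CONT and ABL libraries' deviations from the mean of their group correlated over genes (0.657 in reticular and 0.448 in all mesenchymal cells), which the shared chemistry enters too. The labels do not say whether replicates were separate animals throughout, so p-values refer to these libraries and not to animals. With 1 residual degree of freedom, they rest mostly on variance pooled over genes, not on a gene's own spread between libraries. Each SE was taken from the fold change and the F statistic of the same test, so it rests on that pooled variance too. An exact permutation test of 2 against 2 libraries cannot go below 0.333, so single values were not tested. UMI counts of 3′ libraries were not compared between genes. Results for some further genes of the pathway lists are not reported here.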

Additional observations from a re-analysis of the deposited data

How the results depend on the processing

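With 2 libraries per condition and 1 residual degree of freedom, calls rested on the replicate block: without it 0 genes and 0 members passed in each of the 5 cell groups, with 412 genes at an unadjusted p under 0.05 in reticular and 1201 in all mesenchymal cells. The number of genes past the threshold moved with the processing, and the cause was not tested. In reticular cells it was 291 (1 member), and 147 by DESeq2, 493 without TMM (2 members), 663 without the filter on low counts (3), 574 with the stricter cell filter (2), 149 without doublets called by Scrublet, 68 at resolution 0.4 (2), 153 at resolution 1.5, 533 with the listed genes kept in the clustering (2) and, with 403 genes, 2 members with free RNA subtracted. In all mesenchymal cells it was 338 (2 members), and 636 by DESeq2, 816 without TMM, 75 without the filter on low counts (1 member), 908 with the study's filter alone and 66 with free RNA subtracted (0 members). In neutrophil-lineage cells it was 20 (0 members), and 9 without TMM, 85 without the filter on low counts (1 member), 0 with the study's filter alone (259 at an unadjusted p under 0.05, edgeR), 10 with the stricter filter, 3 without doublets and 8 with free RNA subtracted. The settings for osteoblastic and erythroid cells were added after the data were seen. Osteoblastic cells gave 468 (1 member), and 91 by DESeq2 (0 members) and 0 members with the stricter filter. Erythroid cells gave 60, and 4 by DESeq2, 18 without TMM, 36 with the study's filter alone, 33 with the stricter filter, 33 without doublets and 29 with free RNA subtracted.

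Leaving out 1 library at a time, without the block, gave 0 to 262 genes and 0 members in reticular, 0 to 397 genes and 0 to 1 members in all mesenchymal, 0 to 67 genes (12 without ABL replicate 1) in neutrophil-lineage, 1 to 109 genes (88 without CONT replicate 1) and 0 to 1 members in osteoblastic and 0 to 35 genes in erythroid cells. Without TMM the calls divided into 348 higher and 145 lower in reticular (174 and 117 with it), 149 and 381 in osteoblastic (210 and 258), 16 and 2 in erythroid (33 and 27) and 7 and 2 in neutrophil-lineage cells (18 and 2).

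The fall of *Il6* in reticular cells kept its sign in 18 of 18 alternatives (log2 fold change -2.41 to -1.53) and passed in 11 of 16 with a test (adjusted p 1.21e-09 to 1.00, edgeR or DESeq2). It was lost in the fit without the replicate block and in the 4 fits that also left out a library, each library in turn. *Il11* in reticular cells passed in 4 of 11 alternatives and *Osmr* in 3 of 16. In all mesenchymal cells the sign was kept in 15 of 15 for *Il6*, past the threshold in 6 of 13, and in 15 of 15 for *Il11*, past it in 8 of 13. *Lifr* passed there by DESeq2 (adjusted p = 0.0310). No called member changed sign. Levels at or under 3 UMIs, as for *Il11* in CONT replicate 1, are limited by depth.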
